A study of Mus musculus with 63 samples.

Results

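The genes described are 10 genes of T cells and cytotoxic lymphocytes, read out in small intestinal tumours of the mouse: *Cd3e*, *Cd3g*, *Cd8a*, *Cd4*, *Trac*, *Gzma*, *Gzmb*, *Nkg7*, *Itgae* and *Foxp3*. The rule that chose them names them by symbol and uses no measured value, and all 10 of 10 were found among the 24766 genes of the deposited table. The 63 libraries came from 2 mice, 1 female and 1 male, which were Apchet (1 floxed copy of *Apc* removed by Villin-creERT2, which acts in the intestinal epithelium alone), carried the Confetti reporter that gives single clones a fluorescent colour, were given 4 mg of tamoxifen when aged over 8 weeks and then 200 mg per kg of the mutagen ENU 10 days after it. Every tumour carried the same genotype and treatment. In 20 tumours that held more than 1 colour, 10 from each mouse, the larger clone (major) and the smaller clone (minor) were dissected apart under a fluorescence microscope and sequenced as separate libraries, while a further 23 (10 of the female, 13 of the male mouse) were each sequenced whole and are called undivided here. The labels do not say how many clones an undivided tumour held. The study speaks of monoclonal tumours as its comparison group, fewer than the undivided libraries used here, and does not say which libraries these were. Tumours are named here by the mouse (F or M) and the tumour number, and by the label of the intestinal segment (SI10, SI20 or SI30). Since all tumours came from 2 animals, p-values measure the spread between tumours and not between animals.

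T cells recognise antigen through a receptor whose signal is passed on by the CD3 chains, with CD8 or CD4 as coreceptor. The intestinal epithelium holds many lymphocytes of its own, the intraepithelial lymphocytes, a large part of which carry CD8α, bind epithelial E-cadherin through the integrin chain encoded by *Itgae*, and store granzymes in granules ready for release. Helper and regulatory T cells, which carry CD4 and in the latter case the transcription factor *Foxp3*, are found mainly in the connective tissue below the epithelium. In a tumour dissected in bulk, fewer cells of a type and less RNA of a gene per cell cannot be told apart.

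*Cd3g*, *Gzmb* and *Nkg7* were the members that followed *Gzma* most closely from tumour to tumour (values below), and the 150 bases before their start sites are shown for that reason. The sequences are those of RefSeq on GRCm38.p6, which held a promoter for 7 of the 10 members (all but *Cd4*, *Trac* and *Itgae*), with 2 start sites for *Foxp3*. The sequences run 5′ to 3′ along the gene and end at the base before the start site. They lie at chr13:113100982-113101131 (minus strand) for *Gzma*, chr14:56262335-56262484 (minus strand) for *Gzmb*, chr7:43436988-43437137 (plus strand) for *Nkg7* and chr9:44980432-44980581 (minus strand) for *Cd3g*. Capitals mark the letters TGTGGT, or ACCACA on the other strand, the core recognised by RUNX factors, which were chosen after the sequences had been read.
Gzma: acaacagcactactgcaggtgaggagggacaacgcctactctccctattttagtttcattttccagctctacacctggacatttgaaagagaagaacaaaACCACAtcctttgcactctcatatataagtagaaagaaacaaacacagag
Gzmb: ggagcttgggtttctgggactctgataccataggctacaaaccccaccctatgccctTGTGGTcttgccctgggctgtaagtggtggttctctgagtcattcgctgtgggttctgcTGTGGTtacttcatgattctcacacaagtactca
Nkg7: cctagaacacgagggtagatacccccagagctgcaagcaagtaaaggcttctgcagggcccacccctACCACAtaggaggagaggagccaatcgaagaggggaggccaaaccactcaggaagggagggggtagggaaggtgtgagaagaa
Cd3g: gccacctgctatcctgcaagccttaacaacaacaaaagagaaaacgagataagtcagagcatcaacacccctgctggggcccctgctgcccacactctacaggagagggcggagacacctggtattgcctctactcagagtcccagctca
In windows of 300 bases, from 250 before to 50 after the start, RUNX letters stood in 3 of the 7 members, *Gzma*, *Gzmb* and *Nkg7*, and in 16.8% of all 32851 promoters of the table. Their start lay 50 bases before the start site in *Gzma*, 83 bases in *Nkg7*, and 93 and 34 bases in *Gzmb*. No such letters stood in the window of *Cd3g*, whose values followed those of *Gzma* most closely of all genes tested. Another 4 cores were searched on both strands. The T-box letters GGTGTGA (3.98% of all promoters) stood in *Nkg7* alone, the NFAT letters TGGAAA (21.4%) stood in *Cd3e*, *Cd3g*, *Gzma* and 1 of the start sites of *Foxp3*, and the ETS letters CCGGAAG (8.86%) and the CRE letters TGACGTCA (1.79%) stood in none of the 7. None of these letters overlapped another match. The letters are a description of the windows and no binding was measured here.

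In the GRCm39 genome, *Cd3e* (ENSMUSG00000032093, chr9:44910037-44920925) and *Cd3g* (ENSMUSG00000002033, chr9:44880870-44891735) lie close together on the minus strand. *Cd8a* (ENSMUSG00000053977, chr6:71350411-71356157, plus strand) and *Cd4* (ENSMUSG00000023274, chr6:124841655-124874758, minus strand) share a chromosome, as do *Trac* (ENSMUSG00000076928, chr14:54457978-54461663, plus strand) and *Gzmb* (ENSMUSG00000015437, chr14:56496295-56499717, minus strand). *Gzma* (ENSMUSG00000023132) lies at chr13:113230355-113237524 on the minus strand, *Nkg7* (ENSMUSG00000004612) at chr7:43086497-43087678, *Itgae* (ENSMUSG00000005947) at chr11:72981409-73039917 and *Foxp3* (ENSMUSG00000039521) at chrX:7439883-7461484, all 3 on the plus strand. The values are sums over each gene's transcripts. *Foxp3* overlaps the non-coding gene *Flicr* on its own strand and shares 16.2% of its 31-base words with other genes' transcripts, all of them *Flicr*, so reads of the pair may be split between them. *Cd3e* overlaps the predicted gene *Gm48720* on its own strand, and 0.0981% of its words were found elsewhere. For the members other than *Foxp3* the shared part was between 0% (*Trac* and *Nkg7*) and 2.65% (*Cd4*), with 1.35% of *Gzmb* found in its relative *Gzmc*.

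The libraries were those of epithelial tumours: *Epcam* was at 31001 normalised counts or above and *Vil1*, the epithelial gene whose promoter drives the Cre, at 14077 or above in every library. *Ptprc*, the common leukocyte antigen, was present in all 63. Of the B cell genes, *Ms4a1* was at 0 in 36 and *Pax5* in 44 of 63 libraries, whereas *Cd79a*, which plasma cells also express, was at 0 in 1. The depth, estimated from what 1 read is worth, was between 13.0 and 51.5, in units of 1000000 reads, and 1 read was worth 0.582 to 2.35 normalised counts. The 3 shallowest libraries were the major clone of F28 and the undivided tumours M3 and M18. *Rn18s*, a ribosomal RNA that escaped the selection for polyadenylated RNA, ranged from 0.555% to 19.3% of a library's total, with medians of 6.19% (minor clones), 3.11% (undivided tumours) and 1.24% (major clones).

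All 10 genes were detected in every library, and all passed the filter of a mean of at least 10 in every comparison. Per kilobase of exon, *Gzma* was the most abundant in undivided tumours, with a median of 559 normalised counts per kilobase, followed by *Gzmb* at 180.2 and *Trac* at 104. *Nkg7* (40.3), *Cd3g* (31.8) and *Cd8a* (31.7) followed on the same scale, the last pair without a difference beyond their spread. *Itgae* (24.1), *Cd3e* (12.5), *Cd4* (8.78) and *Foxp3* (5.19) were the lowest. The tumours spread widely around these medians. *Gzma* ranged from 266 to 3048 per kilobase over the 23 undivided tumours, and the range of every gene reached into that of its neighbours in this order.

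In normalised counts, given as the median with the lowest and the highest library, the receptor chain *Cd3e* was at 51.1 (18.5 to 214) in undivided tumours, against 44.1 (10.1 to 115) in the major and 33.9 (4.89 to 70.2) in the minor clones. *Cd3g* was at 104 (47.4 to 359.8), 78.3 (24.4 to 182) and 63.1 (22.1 to 172), in the same order of groups. *Trac*, the constant part of the receptor's α chain, was at 97.4 (25.1 to 279), 55.9 (14.3 to 115) and 59.1 (17.1 to 149). The 3 groups overlapped for each of these genes, and the highest values stood among undivided tumours.

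Of the coreceptors, *Cd8a* had a median of 115 normalised counts (26.8 to 536) in undivided tumours, 69.7 (13.7 to 249.8) in the major and 61.7 (26.7 to 218) in the minor clones. *Cd4* was at 39.5 (13.8 to 167), 55.9 (15.2 to 118) and 41.5 (4.81 to 140.5). Unlike *Cd8a*, *Cd4* had its lowest median in undivided tumours.

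The granule protease *Gzma* stood at 864 normalised counts (411 to 4709) in undivided tumours, 720.1 (232 to 1829) in the major and 586 (156 to 1693) in the minor clones. *Gzmb*, a protease of the same granules, was at 259 (139 to 1083), 199.9 (105 to 567) and 160.1 (51.9 to 396). *Nkg7*, a protein of the granule membrane, was at 37.0 (8.94 to 202), 26.2 (10.1 to 71.8) and 22.3 (8.67 to 89.7). Each had its highest value in an undivided tumour, M5 for *Gzma* and *Nkg7* and F5 for *Gzmb*.

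*Itgae* had a median of 150.3 normalised counts (69.2 to 430.0) in undivided tumours, 121 (43.6 to 253) in the major and 107 (42.7 to 277) in the minor clones. *Foxp3* was at 23.7 (5.25 to 68.7), 19.03 (4.91 to 48.1) and 14.9 (1.28 to 41.1). Per kilobase, *Foxp3* had the lowest median of the 10 genes in each group, and its lowest value was near what 1 read is worth.

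**Figure D1:**
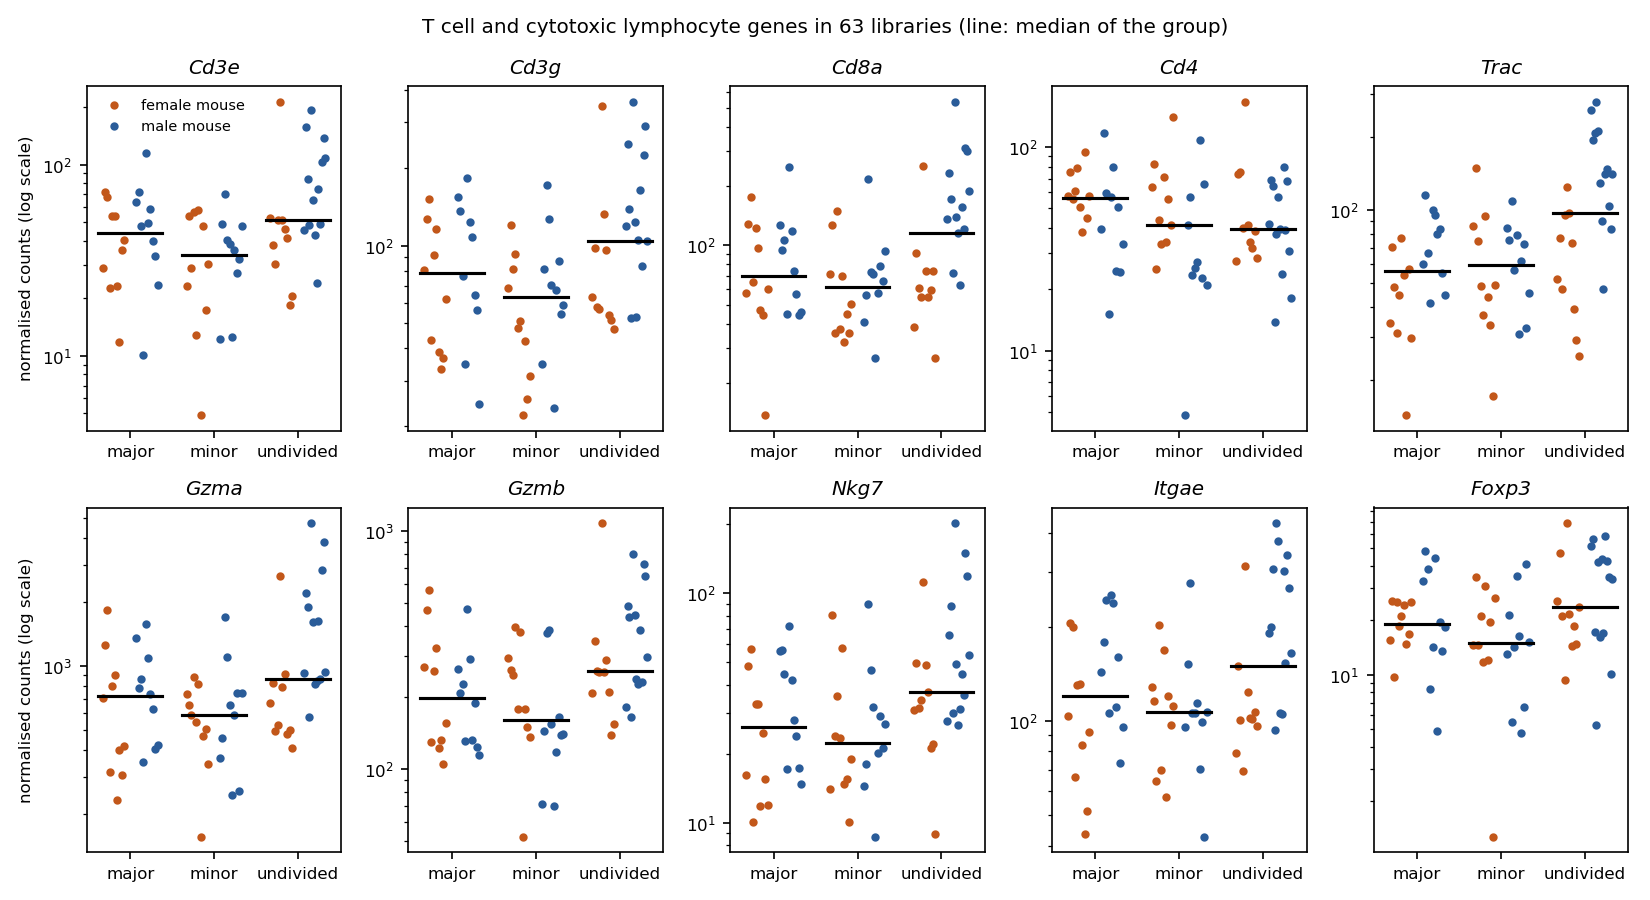
Normalised counts (log scale) of the 10 genes in each of the 63 libraries by group, with points coloured by mouse and a line at the median of the group. The groups overlap for every gene, and the undivided tumours of the male mouse reach the highest values of *Gzma* (4709) and *Cd8a* (536).

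The same tumours stood at the top or the bottom for many of the genes. Among undivided tumours, M5 was among the 3 highest for 8 of 10 genes and the highest for 5 (*Cd3g*, *Cd8a*, *Gzma*, *Nkg7* and *Itgae*), and F5 was the highest for 4 (*Cd3e*, *Cd4*, *Gzmb* and *Foxp3*). F10 was among the 3 lowest for 7. Tumour M4 departed from this pattern. It had the highest *Trac* of all 63 libraries (279) but the lowest *Cd4* (13.8) and *Foxp3* (5.25) of the undivided tumours, with *Gzma* at 572. Among major clones, M25 was among the 3 highest for 8 genes, among minor clones M22 was the highest for 6 and F27 the lowest for 4.

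Undivided tumours were compared with minor clones to ask whether tumours that were not taken apart differ from the smaller clone of a mixed tumour. *Cd3e*, *Cd3g*, *Gzma* and *Gzmb* rose, by 1.78 to 1.92-fold, and the other 6 members did not pass the test. These were 4 of 10 members, all higher in undivided tumours, where 2.27% of the 16491 genes tested were called higher, 1.43% lower and 3.70% in either direction (limma with mouse as a covariate, adjusted p under 0.05). The fold change of *Cd3e* was 1.92 (95% interval 1.31 to 2.82, adjusted p = 0.0437 with limma), that of *Gzma* 1.89 (1.32 to 2.71, adjusted p = 0.0366), that of *Gzmb* 1.80 (1.28 to 2.54, adjusted p = 0.0420) and that of *Cd3g* 1.78 (1.26 to 2.53, adjusted p = 0.0489). Of the 23 undivided tumours, 19 for *Cd3e*, 17 for *Gzma*, 21 for *Gzmb* and 16 for *Cd3g* lay above the median of the minor clones.

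The members without a call had differences on the log2 scale of 0.81 for *Nkg7* (95% interval 0.25 to 1.38, adjusted p = 0.0870 with limma), 0.78 for *Cd8a* (0.26 to 1.29, adjusted p = 0.0716), 0.73 for *Foxp3* (0.13 to 1.33, adjusted p = 0.150), 0.70 for *Trac* (0.22 to 1.17, adjusted p = 0.0814) and 0.56 for *Itgae* (0.15 to 0.98, adjusted p = 0.109). *Cd4* was at 0.12 (-0.40 to 0.65, adjusted p = 0.853). The median over the 10 members was 0.79, beside -0.01 over all genes tested, and 9 members had an unadjusted p under 0.05, as had 19.6% of all genes.

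The 4 calls lay close to the threshold. In turn leaving out each of the 43 libraries kept *Gzma* called in 33 cases, *Gzmb* in 23, *Cd3e* in 22 and *Cd3g* in 14. No member was called without undivided F5, M2, M5 or M17 or without minor F27, F30, M19, M26, M27 or M29, and 7 were called without undivided F10. A single member was called without undivided F7, M3, M9 or M15 or minor F29, M25 or M28, and 2 without minor F24, F28, M20, M23 or M31. No member was called when the segment was added to the model and SI30 left out, although all 10 stayed higher and their median difference was 0.69, and 1 was called when libraries were scaled to the same sum, which shifted the median of all genes to -0.11 and that of the members to 0.70, and the share of higher calls among all genes called from 61.5% to 36.7%. The median share of *Rn18s*, given above, was higher in minor clones than in undivided tumours, and 1 endothelial gene was called lower in undivided tumours (given below). Their part in the result was not tested. With the mean log2 value of the epithelial list as a covariate 4 members were called.

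In the male mouse alone 5 members were called and the median difference of the 10 was 1.16 on the log2 scale, against 0 called and 0.42 in the female mouse. For *Trac* the difference was 1.21 in the male and 0.11 in the female mouse, and for *Cd8a* 1.28 and 0.20. The difference between the mice was tested itself, a test chosen after the values were seen. It was positive for all 10 members, but passed for none of them and for none of the 16491 genes (0.00%, limma interaction of group and mouse, lowest adjusted p of a member 0.315 for *Trac*). At an unadjusted p under 0.05, 3 members and 2098 genes passed.

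Set against major clones, the same 23 undivided tumours gave no call among the members. The comparison shares its undivided tumours with the one above. The test was passed by 2 of the 16510 genes (0.0121%, with 0.00606% higher and 0.00606% lower, limma with mouse as a covariate), and 4 members (*Trac*, *Gzma*, *Gzmb* and *Nkg7*) had an unadjusted p under 0.05, as had 1973 of the 16510 genes. *Trac* had the largest difference, 0.75 on the log2 scale (95% interval 0.33 to 1.16, limma, p = 0.000811 before and 0.229 after adjustment), and 10 of 23 undivided tumours were above the highest major clone. *Nkg7* differed by 0.68 (0.14 to 1.22), *Gzma* by 0.66 (0.14 to 1.19), *Gzmb* by 0.60 (0.14 to 1.07) and *Cd3e* by 0.53 (-0.0029 to 1.07). *Cd4* was the only member below 0, at -0.21 (-0.65 to 0.24). The median over members was 0.52, beside -0.01 over all genes.

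The ratio of *Cd8a* to *Cd4* was taken in each library because they had parted in these same comparisons, so it is described without a test. The log2 ratio of *Cd8a* to *Cd4* was 1.35 ± 1.06 in undivided tumours (SD, n = 23), 0.61 ± 1.11 in minor clones (n = 20) and 0.55 ± 0.93 in major clones (n = 20). Averaged over mice, undivided tumours exceeded minor clones by 0.63 and major clones by 0.70, and 21 and 17 of 23 undivided tumours lay above the median of the minor and of the major clones. Both mice had the same sign, with 0.35 in the female and 0.92 in the male mouse against minor clones and 0.30 and 1.10 against major clones.

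The clones of a tumour were set against each other to ask whether lymphocyte genes differ between clones that share a tumour. None of the 10 members passed the test, where 1.14% of 16428 genes did (188 genes, 0.670% higher and 0.475% lower, limma with tumour as a block). After quantile normalization the higher calls among all genes called went from 58.5% to 38.5%, with 0 members called. No member reached an unadjusted p under 0.05 either, while 22.4% of all genes did. The major clone was higher for 9 of 10 genes, with a median difference of 0.26 beside 0.01 over all genes. *Cd3e* had the largest difference, 0.41 on the log2 scale (95% interval -0.15 to 0.97, limma adjusted p = 0.380), and was higher in the major clone of 14 of 20 tumours. *Gzma* differed by 0.25 (-0.20 to 0.70) and was higher in 12 tumours, *Cd8a* by 0.26 (-0.24 to 0.76) in 11, and *Trac* by -0.07 (-0.44 to 0.31) in 9. Differences of up to 1.95-fold for *Cd3e* and 1.63-fold for *Gzma* in favour of the major clone lie within these intervals. With the epithelial list as a covariate 8 members were higher and their median was 0.09. The fibroblast and B cell lists had medians of 0.66 and 0.57 in the same comparison and the leukocyte list 0.25, and their part in the values was not tested.

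Single tumours differed between their clones by far more than the mean did, and in both directions. In M26 all 10 genes were higher in the major clone, *Cd3g* by 2.34 and *Gzma* by 2.15 on the log2 scale. In M23 all 10 were higher in the minor clone, though *Itgae* only barely (-0.0011). There *Cd3e* was lower in the major clone (-1.89) and *Gzma* likewise (-1.64). In F23 the granule genes were also lower in the major clone, with *Gzmb* at -1.61 and *Nkg7* at -1.72, while *Cd4* was at 0.47. All 10 genes were higher in the major clone of F24, M20 and M26. The SD of the difference over tumours was 1.26 for *Cd3e* and 0.83 for *Trac*, the smallest of the 10. In F29 the genes parted, with *Foxp3* at 2.97 and *Trac* at 1.68 but *Cd8a* at -1.32.

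**Figure D2:**
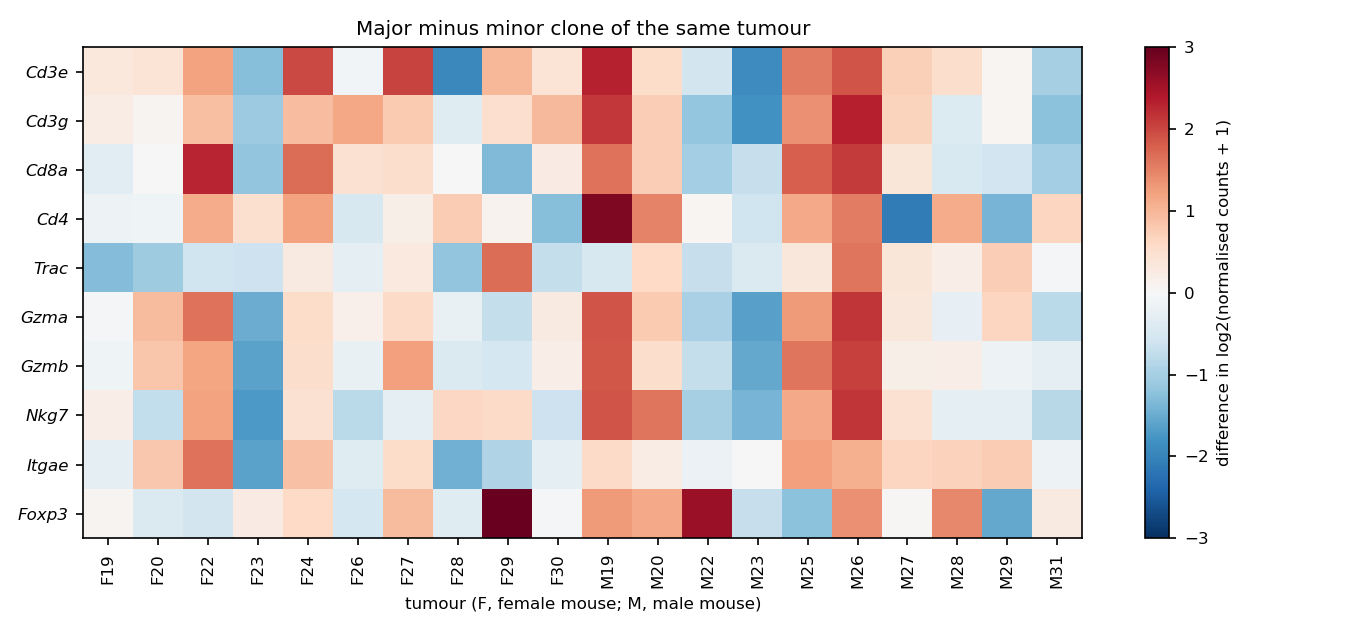
Difference in log2(normalised counts + 1) between the major and the minor clone of each of the 20 divided tumours (columns) for each gene (rows), red where the major clone was higher and blue where the minor clone was. Columns tend to be of one colour, red throughout in M26 and blue in M23 apart from *Itgae*, whose value there was -0.0011.

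The 2 clones of a tumour did not resemble each other detectably in these genes. Over 20 tumours, Pearson's r between the major and the minor clone was between -0.01 (*Cd3e*) and 0.32 (*Trac*), and none of the 10 correlations passed a two-sided permutation test (*Trac* r = 0.32, p = 0.178, Spearman's rho = 0.31, p = 0.185; *Cd3e* p = 0.981, rho = 0.04, p = 0.870). Without the 2 tumours farthest from the median, r was -0.12 (*Cd8a*) to 0.28 (*Itgae*). Within the mice the signs parted, *Gzma* having r = 0.51 in the female and -0.19 in the male mouse over 10 tumours each, and *Itgae* -0.24 and 0.71. 

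The difference between clones was compared between the mice and between the segments. Neither gave a call among the members, nor among all genes (0.00% of 16428 and 0.00% of 16436, limma). At an unadjusted p under 0.05, 1228 genes (7.48%) but no member passed for the mice, and 672 genes (4.09%) and 1 member for the segments. That member was *Trac*, whose difference between major and minor clone was 0.23 in the 10 SI20 tumours and -0.57 in the 7 SI10 tumours (difference 0.78, 95% interval 0.22 to 1.34, limma adjusted p = 0.998).

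**Figure D3:**
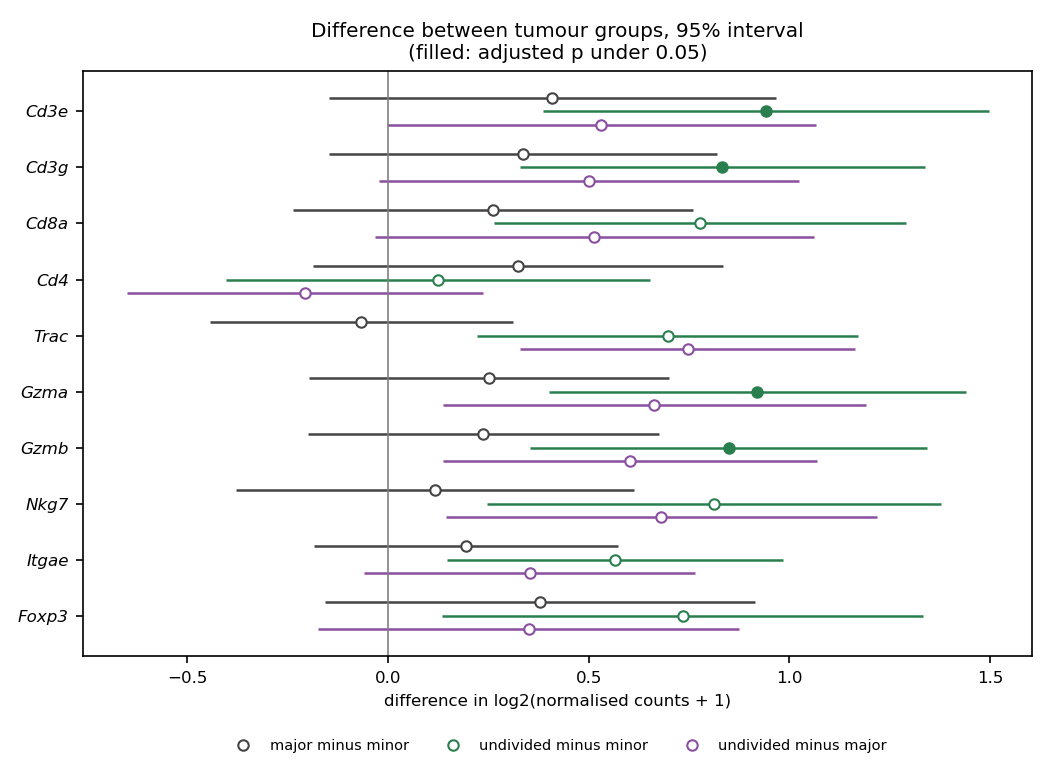
Differences between tumour groups in log2(normalised counts + 1) for each gene, with 95% intervals. Filled points had an adjusted p under 0.05, which were *Cd3e*, *Cd3g*, *Gzma* and *Gzmb* in undivided tumours against minor clones.

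Tumours of the SI10 and SI20 segments were compared within the undivided and within the divided tumours. In undivided tumours all 10 members were lower in SI20 (n = 11) than in SI10 (n = 12), by a median of -0.65 on the log2 scale beside 0.00 over all genes. No member passed, where 0.170% of 16511 genes did (0.0182% higher and 0.151% lower), and 6 members had an unadjusted p under 0.05, beside 7.62% of all genes. *Nkg7* was at a median of 57.5 normalised counts in SI10 (27.7 to 202) and 35.9 in SI20 (8.94 to 53.6), with a difference of -0.94 (95% interval -1.64 to -0.25, limma adjusted p = 0.507). *Gzma* was at 1415 (493 to 4709) and 846 (411 to 1624), a difference of -0.71 (-1.37 to -0.05), and *Cd3e* at 68.4 (30.3 to 214) and 45.98 (18.5 to 109), a difference of -0.81 (-1.50 to -0.13). *Foxp3* had the smallest difference, -0.03 (-0.84 to 0.78). The 4 undivided tumours with the highest *Gzma*, M5, M17, M15 and F5, were all from SI10. Markers of some other cells lay the other way without a call. Higher in SI20 were 8 of 9 fibroblast and smooth muscle genes (median 0.85), 5 of 6 endothelial genes (0.64) and 7 of 9 granulocyte and mast cell genes (0.82). The medians of the macrophage (0.02, 5 of 10 higher), plasma cell (-0.07, 2 of 7) and B cell genes (0.11, 2 of 3) were smaller, while 7 of 8 leukocyte genes were lower (-0.25). Their part in the members' differences was not tested.

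In the 17 divided tumours with 1 segment label, SI10 (n = 7) or SI20 (n = 10), taken as the mean of both clones, 9 of 10 members were lower in SI20, by a median of -0.40 beside 0.01 over all genes. None passed, where 0.280% of 16436 genes did (0.183% higher and 0.0973% lower). *Cd3g* had the largest difference, -0.55 (95% interval -1.07 to -0.03, limma adjusted p = 0.328), and *Cd4* was the member above 0, at 0.04 (-0.56 to 0.65). All 8 leukocyte genes were lower in SI20 as well (median -0.53), as were 7 of 9 macrophage genes (-0.42), none with a call, and the part of this in the members' values was not tested. The 2 divided tumours of SI30, both of the female mouse, and F22, whose clones carry different labels, were left out.

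In undivided tumours the male mouse had higher levels than the female for *Cd8a*, *Trac*, *Gzma* and *Itgae*. *Cd8a* was at a median of 155.6 normalised counts in the male (62.6 to 536, n = 13) and 59.9 in the female (26.8 to 251, n = 10), a 2.47-fold difference (95% interval 1.57 to 3.90, limma with segment as a covariate, adjusted p = 0.00652). *Trac* was at 140.6 (47.1 to 279) and 62.5 (25.1 to 124), a 2.34-fold difference (1.59 to 3.46, adjusted p = 0.00340). *Gzma* was at 1604 (572 to 4709) and 597 (411 to 2656), a 2.09-fold difference (1.32 to 3.31, adjusted p = 0.0237), and *Itgae* at 200.5 (93.8 to 430.0) and 102 (69.2 to 314), a 1.82-fold difference (1.22 to 2.69, adjusted p = 0.0312). The ranges overlapped for all 4.

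These were 4 of 10 members, where 19.1% of 16511 genes were called 10.3% being higher and 8.82% lower in the male mouse. With libraries scaled to the same sum, 3 members were called, the median of all genes was -0.25, and the share of higher calls went from 53.8% to 22.1%. *Cd4* was lower in the male mouse, by -0.25 on the log2 scale (95% interval -0.91 to 0.41), and *Gzmb* differed by 0.40 (-0.19 to 1.001), neither with a call. Leaving out undivided F3 left 2 members called, as *Gzma* (adjusted p = 0.0502, limma) and *Itgae* passed the threshold no longer, and leaving out F5 gave 6. Sex and animal cannot be told apart, since there was 1 mouse of each.

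In the divided tumours of the same mice the differences of these 4 genes were smaller. Over the means of both clones in 10 male and 7 female tumours, a comparison added after the values were seen, no member was called, although 13.1% of 16436 genes were. *Cd8a* differed by 0.11 on the log2 scale, *Gzma* by 0.24, *Trac* by 0.37 and *Itgae* by 0.25, and *Cd4* by -0.65 (limma, p = 0.0379 before and 0.142 after adjustment). *Gzmb* was at -0.30. The interaction of group and mouse, which tests whether the mice differ by another amount in undivided tumours than in clones, passed for no member against minor clones (given above) or against major clones (lowest adjusted p 0.441 for *Cd8a*, limma interaction, 0 of 16510 genes called, 0.00%, and 1922 genes but no member at an unadjusted p under 0.05).

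**Figure D4:**
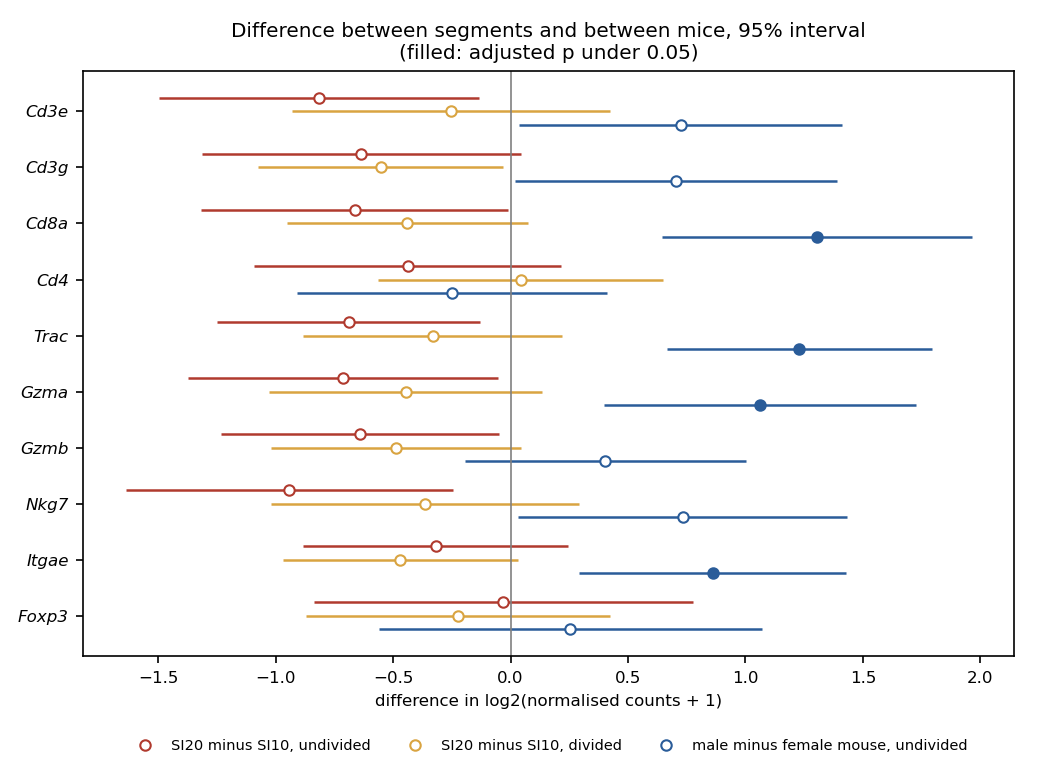
Differences between segments and between the mice in log2(normalised counts + 1) for each gene, with 95% intervals. Filled points had an adjusted p under 0.05, which were *Cd8a*, *Trac*, *Gzma* and *Itgae* for the male against the female mouse in undivided tumours. For SI20 against SI10, all 10 genes lay below 0 in undivided tumours, while *Cd4* lay above 0 in divided tumours (0.04).

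Across the 23 undivided tumours, 7 of the other 9 members followed *Cd3e*. Pearson's r was 0.87 for *Gzmb*, 0.86 for *Gzma* and *Nkg7*, 0.85 for *Cd3g* and 0.84 for *Cd8a* (two-sided permutation test, p = 1e-05 for each, the smallest that 100000 resamples can give, without adjustment over the 9 relations computed). Spearman's rho for these 5 was between 0.75 and 0.83, with a permutation p between 1e-05 and 0.0001. For *Itgae* r was 0.73 (permutation p = 8e-05) with a rho of 0.66 (p = 0.0008), and for *Trac* r was 0.64 (permutation p = 0.0012) with a rho of 0.62 (p = 0.00231). Without the 2 tumours farthest from the median of *Cd3e*, these 7 kept an r between 0.64 and 0.82. Within the mice the r of *Gzma* was 0.89 over 10 tumours of the female and 0.82 over 13 of the male, and that of *Trac* 0.81 and 0.31.

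*Cd4* and *Foxp3* did not follow *Cd3e* detectably, with r = 0.35 for both (permutation p = 0.102 for each) and a rho of 0.23 (p = 0.291) and 0.28 (p = 0.198). Without the 2 farthest tumours their r was 0.19 and 0.18. Within the mice *Cd4* had an r of 0.64 in the female and 0.29 in the male mouse, and *Foxp3* 0.54 and 0.19. The test did not take the mouse into account. With the mean of each mouse subtracted, r with *Cd3e* was 0.45 for *Cd4* and 0.32 for *Foxp3*, described without a test. These correlations compare normalised counts that share the scaling of their library.

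After subtraction of each mouse's mean, the pairs among the granule genes, *Cd8a* and *Itgae* (*Gzma*, *Gzmb*, *Nkg7*, *Cd8a* and *Itgae*) had a median r of 0.87 in undivided tumours over their 10 pairs (0.74 to 0.94, described without a test). *Cd4* or *Foxp3* with these 5 gave a median of 0.47 (0.20 to 0.72). The medians were 0.86 and 0.37 in the 20 major clones and 0.72 and 0.13 in the 20 minor clones. *Trac* stood further off than the other receptor chains, with a median of 0.31 to the other 9 genes in undivided tumours, where *Cd3e* and *Cd3g* both had 0.82.

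**Figure D5:**
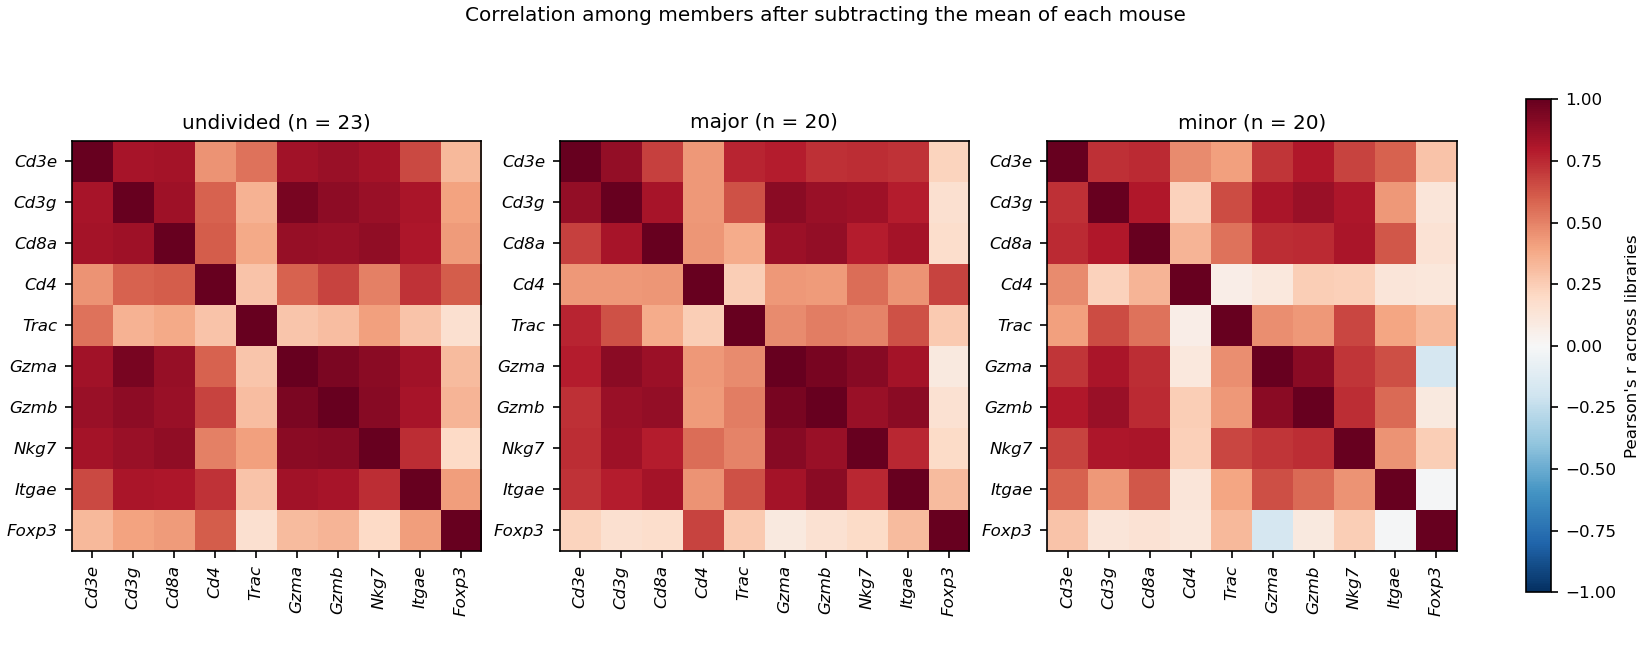
Pearson's r between each pair of the 10 genes over undivided tumours (n = 23), major clones (n = 20) and minor clones (n = 20), after subtraction of the mean of each mouse, on a colour scale from -1 to 1. A block of high values holds *Cd3e*, *Cd3g*, *Cd8a*, *Gzma*, *Gzmb* and *Nkg7* in each group. *Itgae* joins it in undivided tumours and major clones, but had r = 0.44 with *Cd3g* and 0.45 with *Nkg7* in minor clones. The rows of *Cd4* and *Foxp3* are paler. That of *Trac* is paler in undivided tumours, but reached 0.76 with *Cd3e* in major clones and 0.67 with *Nkg7* in minor clones.

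Of the 16510 genes ranked by their r with *Gzma* in undivided tumours (mouse means subtracted), *Cd3g* came at rank 1 (r = 0.95), *Gzmb* at rank 2 (0.94), *Nkg7* at rank 4 (0.90) and *Cd8a* at rank 11 (0.87), whereas *Trac* came at rank 4016 (0.28) and *Foxp3* at 3456 (0.32). The 8 genes outside the list that were most like *Gzma* were *Ccl5* (0.93), a chemokine of cytotoxic lymphocytes, *Cd7* (0.90), a surface protein of T and natural killer cells, *Trgc2* (0.89), a constant part of the γδ receptor, *Il2rb* (0.88), a receptor chain for IL-2 and IL-15, *Gimap3* (0.88), a lymphocyte GTPase, *Lpxn* (0.88), *B2m* (0.88), the light chain of MHC class I, and *Exoc3l4* (0.87). In the 40 clones, which the ranking did not use, their r with *Gzma* was between 0.43 (*Lpxn*) and 0.91 (*Ccl5*).

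For *Cd3e* the nearest genes outside the list included *Psmb8* (0.88), a subunit of the immunoproteasome, *Il2rb* (0.86), *Dao* (0.82), *Gimap3* (0.82), *Cd160* (0.81), a receptor of cytotoxic and intraepithelial lymphocytes, *Gm43042* (0.81) and *Cxcr6* (0.81), a chemokine receptor of resident T cells. In the 40 clones the r of these genes with *Cd3e* was between 0.46 (*Gm43042*) and 0.89 (*Il2rb*). *Trac* was at rank 774 for *Cd3e* (0.54) and *Foxp3* at 3178 (0.32).

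Further genes of the T cell receptor and its signalling were read for comparison, 20 of 21 of which were tested in undivided tumours against minor clones. Of these, 19 were higher and 3 were called, all higher, with a median of 0.63 on the log2 scale. They included *Trgc1*, a constant part of the γδ receptor (0.96, SE 0.26, adjusted p = 0.0321 with limma), and *Trbc1*, a constant part of the β chain (0.88, SE 0.26, adjusted p = 0.0429). Of 23 further cytotoxic and natural killer genes, 15 were tested and 13 were higher, with a median of 0.73. The protease *Ctsw* was called higher (0.87, SE 0.24, adjusted p = 0.0348) and *Cd244a*, a receptor of natural killer cells, was called lower (-0.60, SE 0.17, adjusted p = 0.0369). *Cd244a* was also the 1 gene of all these lists called between major and minor clones, lower in major (-0.52, SE 0.12, adjusted p = 0.0426).

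Of 20 genes by which the epithelium signals to lymphocytes, 19 were tested, and 5 were called, all higher in undivided tumours than in minor clones. They were the butyrophilin-like genes *Btnl6* (0.91, SE 0.19, adjusted p = 0.00985 with limma), *Btnl2* (0.72), *Btnl1* (0.71) and *Btnl4* (0.61), of which *Btnl1* and *Btnl6* encode surface proteins of enterocytes that are recognised by γδ intraepithelial lymphocytes, and the cytokine *Il18* (0.60). Among 15 tested genes of homing and residency and 12 of regulation and checkpoints none was called, and their medians were 0.28 and 0.19. Among 7 of helper and innate lymphoid cells none was called and the median was -0.13.

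Markers of other cells were read in the same comparison, and their part in the members' differences was not tested. All 8 leukocyte genes were higher without a call (median 0.50, lowest adjusted p 0.0507 with limma). The summed leukocyte list had a median of 2624 normalised counts in undivided tumours, 2267 in the major and 1832 in the minor clones. Of the plasma cell genes 4 of 6 tested were higher (median 0.64), of the macrophage genes 7 of 9 (0.37) and of the B cell genes 3 of 3 (0.44), none with a call. *Cdh5* of the endothelium was called lower (-1.12, SE 0.33, adjusted p = 0.0473), as was *Kit* among mast cell and granulocyte genes (-0.90, SE 0.25, adjusted p = 0.0321), and the epithelial *Cldn7* was called higher (0.28, SE 0.08, adjusted p = 0.0441). Each was the only call of its list. Higher in undivided tumours were 2 of 6 endothelial genes (median -0.21), 5 of 9 granulocyte and mast cell genes (0.02) and 5 of 8 epithelial genes (0.16). The 9 genes of fibroblasts and smooth muscle had a median of -0.08 without a call, and their summed level had a median of 4844 normalised counts in undivided tumours (875 to 17021), 6658 (1760 to 24823) in the minor and 8914 (1825 to 26213) in the major clones. Against major clones all 9 of these genes and all 6 of the endothelium were lower in undivided tumours, none with a call (medians -0.71 and -0.46).

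Between the mice the lymphocyte genes of the lists moved in both directions, and most lists did not follow the members. Higher in undivided tumours of the male mouse were 9 of 10 members (median 0.73 on the log2 scale) but 7 of 20 T cell receptor and signalling genes (-0.12). The same held for 12 of 17 cytotoxic and natural killer genes (0.39). Of the regulatory and checkpoint genes 2 of 12 were higher (-0.78), and of the leukocyte genes 2 of 8 (-0.18). In undivided tumours of the male mouse *Ccl5* (1.59, SE 0.37, adjusted p = 0.00447 with limma), *Xcl1* (1.71), *Ctsw* (1.06) and *Cd8b1*, the partner chain of *Cd8a* (1.16), were called higher, as were the epithelial *Il15* (1.68), *Ccl25* (1.48), *Tnfrsf14*, *Btnl1*, *Btnl2*, *Btnl4* and *Btnl6*. Called lower were *Ctla4* (-2.70, SE 0.61, adjusted p = 0.00381), *Icos* (-1.73), *Il2ra* (-1.35) and *Tnfrsf9* (-0.92) among regulatory and checkpoint genes, *Il17a* (-2.996) of helper cells, the receptor chain *Trdc* (-1.04) and 4 of 6 endothelial genes (*Cdh5*, *Kdr*, *Vwf* and *Emcn*). In the helper list 1 gene was called higher in the male mouse and 1 lower, of which the lower one is named above. *S1pr1*, *Cxcl11*, *Ulbp1*, *Tgfb1*, *Sdc1*, *S100a8* and *S100a9* were also called lower in the male mouse.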

How the data were processed

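RNA sequencing of 63 libraries (20 major clones, 20 minor clones, 23 undivided tumours) was read from 1 table. What the authors deposited is a signal for each gene. They trimmed reads with Trimmomatic 0.39, estimated counts with Salmon 1.9.0 against Gencode M30 (GRCm39) and deposited them as normalised counts, after scaling between libraries in a way not given in the sources used here other than that DESeq2 was used. As values are not whole, no count model was used, and a fold change on the log2(value + 1) scale understates changes of low genes.

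Major and minor classes were taken from the source data of the study by sample name, since the labels give only a letter. Clones were paired by tumour number, a pairing that lies in the design, and the clones of a tumour, each as its deviations from the class mean, correlated across genes above 0.1 in 17 of 20 tumours (median 0.265). All 23 undivided tumours were used.

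Genes with a mean of at least 10 entered limma 3.58.1 (moderated by eBayes with a trend, R 4.3.3) on log2(value + 1), with Benjamini-Hochberg adjustment over all genes tested and a threshold of 0.05. The comparison of clones had tumour as a block, the others mouse as a covariate, and segment a covariate for the comparison of mice. The tests were tried on simulated data. Correlations used 100000 permutations (numpy 2.4.6). Alternatives covered the pseudocount (0.1 and 5), the filter (none, and a mean of at least 50), scaling, the trend, the block, covariates, single mice and single libraries. Depth was estimated from what the lowest values of a library step by (13.0 to 51.5, in units of 1000000 reads) and gives no interval for single values.

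The members and the gene lists were chosen with earlier results of these data known. Genes named outside the members are those of the lists called in a comparison and the 8 nearest to *Cd3e* and *Gzma*. Some genes that this rule names are not reported here. Where a list had no call, its counts and median are given for some of the comparisons only. Positions are those of Gencode M39, a later release on the same build.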

Additional observations from a re-analysis of the deposited data

How the results depend on the processing

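The count of members called was the same under every alternative run for major against minor clones (0), undivided tumours against major clones (0), both segment comparisons (0) and the differences between clones across mice and segments (0). Without the replicate block for major against minor clones, 0 members and 0 genes were called against 0 and 188 with it, and with an exact signed-rank test 0 and 48. For undivided tumours against minor clones, 4 members were called, but 1 without a filter on low values and 1 with libraries scaled to the same sum. Likewise 1 was called without undivided M3 and M18, the shallowest libraries of this comparison (an alternative added later). The count was 0 in the female mouse alone, 0 with mouse and segment as covariates, and between 0 and 7 when single libraries were left out. Scaling to the same sum moved the share of higher calls among all genes from 61.5% to 36.7% there, and from 53.8% to 22.1% between the mice, where the median of all genes was -0.25. For the male against the female mouse the 4 members became 3 under this scaling, 0 in divided tumours and 2 to 6 without single tumours. The cause of these shifts was not tested.

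The direction of some single members turned, none of them with a call. Between major and minor clones it was -0.11 for *Nkg7* and -0.10 for *Itgae* in the female mouse, 0.22 for *Trac* in the male mouse, and -0.014 for *Nkg7* with the epithelial covariate. For undivided tumours minus clones in the female mouse it was -0.15 for *Cd4* against minor clones and -0.034 for *Cd8a* against major clones. Without single libraries *Cd4* was at -0.023 to 0.22 in undivided tumours minus minor clones. Between segments of undivided tumours *Foxp3* was at 0.075 with the same sum, 0.40 in the male mouse and -0.23 to 0.13 without single tumours, and in divided tumours *Cd4* was at -0.23 in the female mouse and -0.18 to 0.21 without single tumours. In divided tumours *Gzmb* was at -0.30 and *Foxp3* at -0.23 between the mice. The clone difference between the mice was -0.0047 for *Cd3e* with a pseudocount of 0.1, and -0.093 for *Cd3e* and -0.0042 for *Cd8a* after quantile normalization. Of 826 values of single members under other settings, 784 kept direction and side of the threshold, 25 lost and 3 gained a call. Correlation counts were 0 of 10 and 7 of 9 under each of the 3 alternatives.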
